A study of Mus musculus with 4 samples.

Results

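Kat6a encodes a histone acetyltransferase of the MYST family. The genes described here are Kat6a, its closest paralog Kat6b, the 2 further MYST enzymes Kat7 and Kat8, and the subunits that work with them: the scaffolds Brpf1, Brd1 and Brpf3, the chromatin readers Ing4 and Ing5, and Meaf6. They are 10 of the 55422 genes counted, chosen by name, with earlier results of these data known, and found by Ensembl ID. RNA was measured in single nuclei of the hippocampus of adult mice. There were 2 libraries of Control mice (Kat6a-f/f, part of the Kat6a gene flanked by loxP sites) and 2 libraries of Kat6a-cKO mice (NEX-cre; Kat6a-f/f), so the floxed gene was common to all 4 libraries and the Cre gene set the groups apart. NEX-cre is driven by the Neurod6 locus, which is active in excitatory neurons of the forebrain. Nothing in the labels says whether a library was made from a single mouse, so p-values for the genotype measure the spread between these libraries. Comparisons between cell classes were made within libraries, and their p-values measure how class differences vary from library to library.

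MYST enzymes transfer acetyl groups to lysines of histone tails. KAT6A and KAT6B act in complexes of 4 proteins, in which BRPF1, BRD1 (also called BRPF2) or BRPF3 holds the enzyme together with ING4 or ING5, a reader of methylated histone H3, and the small subunit MEAF6. KAT7 (HBO1) uses the same readers and MEAF6 with either a BRPF or a JADE scaffold, and KAT8 (MOF) acts in the separate MSL and NSL complexes. Loss of KAT6A or KAT6B function in people causes developmental disorders with intellectual disability.

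The libraries held 171323466 to 186897245 counts, and 7911 to 8442 barcodes per library reached 5000 UMIs (unique molecular identifiers, each marking a captured RNA molecule). Nuclei were clustered without the 10 genes and named from marker lists, and UMIs were summed per class and library. Between 486 and 682 nuclei per library were CA3 pyramidal, 1594 to 1900 CA1 pyramidal, 2696 to 3401 dentate granule and 582 to 722 inhibitory. Glial classes were smaller, from 220 nuclei of oligodendrocyte precursor cells (OPC) to 1072 oligodendrocytes. For these 8 classes the summed markers were highest in their own class, but dentate granule markers were shared widely: their summed level was 3764 to 3812 CPM in dentate granule nuclei and 3032 to 3620 CPM in oligodendrocytes. The gene table has an entry for cre. It had 0 UMIs in both Control libraries and 151 and 147 in the Kat6a-cKO libraries, of which 33 and 51 were in CA3 and 70 and 60 in CA1 nuclei, but only 5 and 6 in the more numerous dentate granule nuclei.

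Kat6a lies on chr8:22859535-22943259 (plus strand; positions are those of GRCm38, GENCODE M21), where Gm45555 overlaps it on the same strand, and Kat6b on chr14:21481434-21672478 (plus strand). Because the paralogs are alike, the stretches that their transcripts share were looked up, since a read from inside such a stretch fits both genes. Of the 9175 distinct 31-base words in Kat6a transcripts and the 16950 in Kat6b transcripts, 7 were shared. They came from 2 stretches, both coding, printed here with the shared part in capitals and 15 bases of flank on each side. The first, of 35 bases, lies in exon 8 of Kat6a (chr8:22911820-22911854, plus strand) and exon 7 of Kat6b (chr14:21625053-21625087, plus strand).
Kat6a: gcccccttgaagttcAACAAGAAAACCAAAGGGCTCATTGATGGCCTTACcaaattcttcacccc
Kat6b: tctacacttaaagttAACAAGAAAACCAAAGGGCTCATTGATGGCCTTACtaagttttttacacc
The second, of 32 bases, lies in exon 18 of Kat6a (chr8:22939290-22939321, plus strand) and exon 17 of Kat6b (chr14:21669680-21669711, plus strand).
Kat6a: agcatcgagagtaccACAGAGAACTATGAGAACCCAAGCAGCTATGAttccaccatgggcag
Kat6b: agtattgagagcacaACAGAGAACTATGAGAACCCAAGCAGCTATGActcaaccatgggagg
The only other shared words among the 10 genes were 8 between Kat8 and Ing4. Exons only were compared, and nuclear RNA also gives reads from introns.

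Kat6a UMIs passed the test for a difference between the genotypes in no class. In CA3 nuclei the Control libraries had 79.7 and 78.1 CPM of Kat6a and those of Kat6a-cKO 74.2 and 79.8 CPM, so the groups overlapped. These and the following levels are UMIs per 1000000 (CPM) after TMM scaling across the 8 named classes. Overlap of groups was judged on them. The genotype fits scaled each class on its own, so fitted differences can depart from those of the printed CPM. In CA3 the log2 difference, Kat6a-cKO minus Control, was -0.05 ± 0.08 (SE, n = 2 libraries per group) with a 95% interval from -0.229 to 0.13 (adjusted p = 0.93, edgeR quasi-likelihood test). In CA1 nuclei the values were 78.6 and 80.3 CPM against 78.9 and 78.2 CPM, again overlapping, with an interval from -0.211 to 0.132. Dentate granule nuclei had 108 and 104 CPM against 103 and 99.7 CPM. Here both Kat6a-cKO libraries were below both Control libraries, by -0.09 ± 0.06 on the log2 scale, with an interval from -0.234 to 0.0554 (adjusted p = 0.73). Some summed marker lists of other classes also set the groups apart in these nuclei. For CA3, mossy, subicular, deep cortical, inhibitory, OPC, mural, choroid plexus and ependymal markers the groups overlapped. The 8 microglial markers, all above 0, summed to 182 and 211 CPM of class totals for Control against 151 and 157 for Kat6a-cKO, and the 8 astrocyte markers, also all above 0, to 1378 and 1393 against 1517 and 1544. One of the astrocyte markers, Slc4a4, is also the first leading gene of dentate granule cluster 0. The astrocyte sum thus includes expression of the granule nuclei themselves. Microglial markers were likewise lower in both Kat6a-cKO libraries in CA3 (87.8 and 107 against 73.6 and 81.7 CPM) and CA1 (108 and 136 against 98.3 and 103 CPM). In inhibitory neurons the groups overlapped for these markers (127 and 148 against 132 and 111 CPM). CA2 markers were lower in both Kat6a-cKO libraries in each of the 8 classes, such as inhibitory neurons (47.5 and 48.7 against 36.1 and 35.1 CPM). Oligodendrocyte markers were lower in CA3, CA1 and inhibitory nuclei (115 and 125 against 85.9 and 84.6 CPM in the last). They were higher in dentate granule nuclei (407 and 403 against 416 and 410 CPM). The part of these marker shifts in the Kat6a values was not tested. Inhibitory neurons, which NEX-cre is not known to target, had 78.3 and 73.8 CPM against 77.8 and 75.3 CPM. The counts were 873 to 1116 Kat6a UMIs per library in CA3 and 1897 to 2371 in CA1. They cover the whole gene, introns included where the authors counted them, so a transcript that has lost its floxed exons still counts and these values do not check the deletion.

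Across classes, Kat6a was highest in microglia and lowest in neurons of the CA fields and inhibitory neurons. Microglia had 206 ± 11.1 CPM (mean ± SD over the 4 libraries of both genotypes), oligodendrocytes 169 ± 7.41, astrocytes 131 ± 12.9, OPC 110 ± 4.9, dentate granule nuclei 104 ± 3.35, CA1 79 ± 0.911, CA3 77.9 ± 2.63 and inhibitory neurons 76.3 ± 2.14 CPM. The highest class mean was 2.7 times the lowest. The libraries of neighbouring classes did not overlap at 3 steps of this order. These were microglia over oligodendrocytes (log2 difference 0.29 ± 0.06, adjusted p = 5.78e-05), oligodendrocytes over astrocytes (0.37 ± 0.06, 1.51e-06) and dentate granule over CA1 nuclei (0.39 ± 0.05, 3.24e-09), each by edgeR with the library as a block. Astrocytes and OPC overlapped and differed by 0.25 ± 0.07 (adjusted p = 0.00304), a call that was lost without the first Control library (0.18, adjusted p = 0.0914). OPC and dentate granule (adjusted p = 0.242), CA1 and CA3 (0.789) and CA3 and inhibitory neurons (0.647) did not pass the test, although scaled to class totals OPC exceeded dentate granule nuclei by 0.38 and CA3 was below inhibitory neurons by -0.17 (adjusted p = 3.62e-06 and 0.00576). Kat6a was lower in CA3 than in dentate granule nuclei by -0.41 ± 0.05 (adjusted p = 2.14e-09).

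Kat6b was highest in dentate granule nuclei, and under TMM its order among the neuronal classes was that of Kat6a. It was lowest in oligodendrocytes and microglia, the classes where Kat6a was highest. Dentate granule nuclei had 387 ± 21.3 CPM, CA1 267 ± 24.6, CA3 244 ± 14.3, inhibitory neurons 235 ± 5.08, astrocytes 231 ± 25.4, OPC 229 ± 11, oligodendrocytes 134 ± 7.23 and microglia 127 ± 11.3 CPM. The highest class mean was 3.05 times the lowest. At 2 steps of the order the libraries of neighbouring classes did not overlap, between dentate granule and CA1 nuclei (0.54 ± 0.05, adjusted p = 1.77e-13) and between OPC and oligodendrocytes (0.77 ± 0.06, adjusted p = 5.79e-15). Of the classes between these steps, CA1 and CA3 overlapped and differed by 0.13 ± 0.05 on the log2 scale (adjusted p = 0.0243), which missed the threshold without the first Control library (adjusted p = 0.0657) and without either Kat6a-cKO library (0.196 and 0.0761). No other neighbouring pair between these steps passed under TMM, but CA1 exceeded inhibitory neurons (0.18 ± 0.05, adjusted p = 0.001), astrocytes (0.20 ± 0.05, 6.56e-04) and OPC (0.22 ± 0.05, 4.99e-04). Scaled to class totals, CA3 was below inhibitory neurons by -0.15 (adjusted p = 0.00446) and inhibitory neurons below astrocytes by -0.24 (adjusted p = 3.78e-05), and CA1 was below astrocytes by -0.24 and OPC by -0.16 (adjusted p = 3.5e-05 and 0.00675), so the order of these classes depends on the scaling. Under TMM, oligodendrocytes and microglia did not pass either (adjusted p = 0.324). Scaled to class totals, Kat6b was lower in oligodendrocytes than in microglia by -0.41 (adjusted p = 1.02e-07). Per nucleus, a CA3 nucleus held 5.22 ± 0.256 Kat6b UMIs and 1.67 ± 0.164 Kat6a UMIs, and a microglial nucleus 0.454 ± 0.0233 and 0.742 ± 0.0967.

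**Figure D1:**
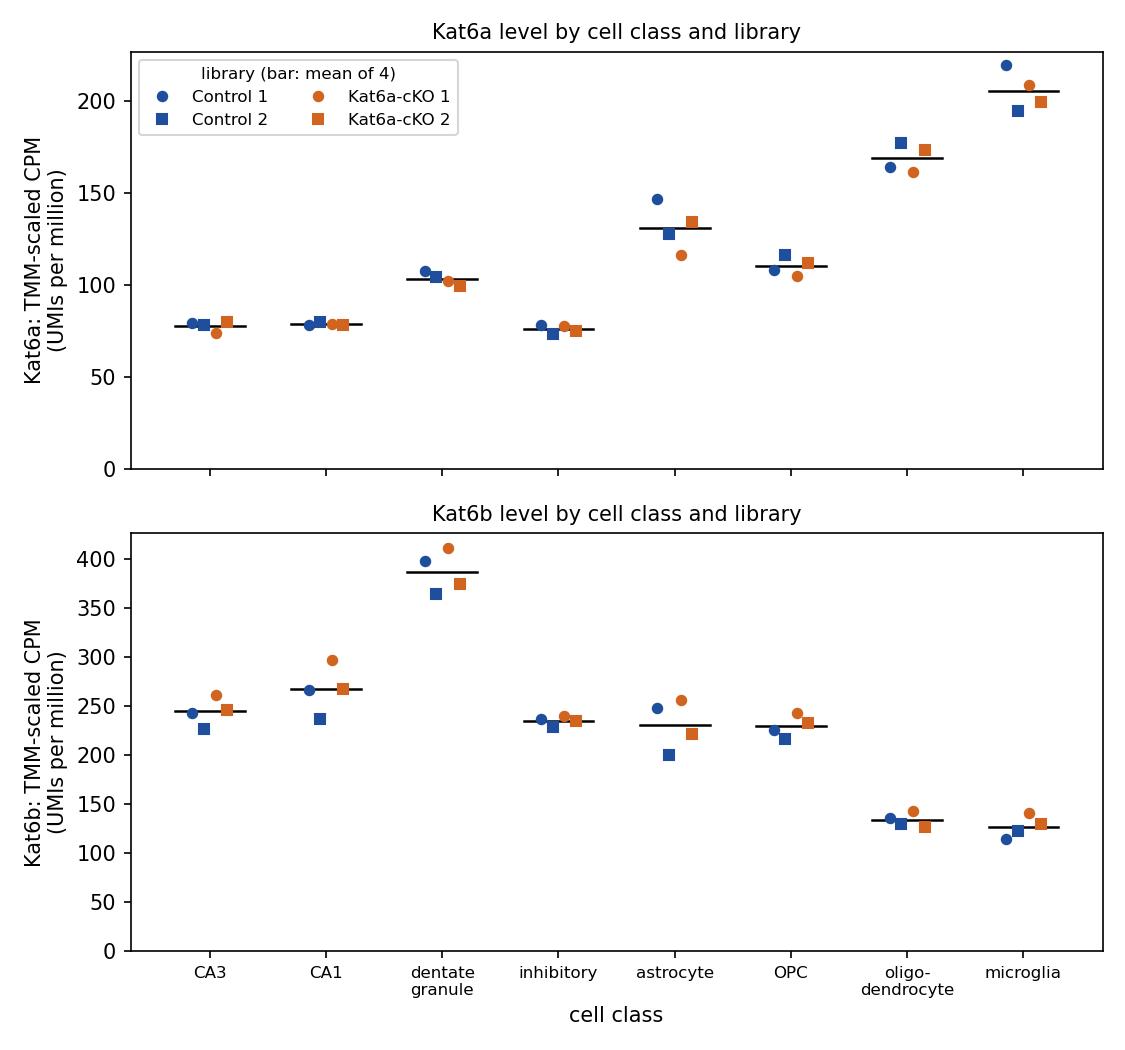
Level of Kat6a (top) and Kat6b (bottom) in TMM-scaled UMIs per 1000000 (CPM) in each cell class; each point is a library (blue Control, orange Kat6a-cKO) and the black bar is the mean of the 4. Kat6a rises from 76.3 CPM in inhibitory neurons to 206 CPM in microglia, while Kat6b falls from 387 CPM in dentate granule nuclei to 127 CPM in microglia.

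Glial classes split by these paralogs within a single lineage. From OPC to oligodendrocytes, the myelinating cells that OPC give rise to, Kat6a was higher by 0.62 ± 0.07 (adjusted p = 7.04e-11) and Kat6b lower by -0.77 ± 0.06 (adjusted p = 5.79e-15) on the log2 scale. Both calls held with each library left out in turn. Astrocytes also exceeded oligodendrocytes in Kat6b, by 0.79 ± 0.06 (adjusted p = 7.82e-16). The choice of scaling matters for microglia, whose nuclei were shallow (median 2181 to 2693 UMIs, against 23554 to 28607 in CA3). TMM factors ran from 0.793 in CA3 to 1.51 in microglia, and without them the median gene was 0.72 log2 units lower in CA3 than in microglia, against 0.11 higher with them. Scaled to class totals, CA3 minus microglia was -2.23 for Kat6a and 0.12 for Kat6b (adjusted p = 0.0573), against -1.40 and 0.95 with TMM. Kat6a thus stayed highest in microglia under both scalings, whereas the Kat6b difference from CA3 was called under TMM only.

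The number of Kat6b UMIs per Kat6a UMI does not depend on scaling, since both counts come from the same nuclei. It is not corrected for gene length, so only its change between classes is read. Dentate granule nuclei had 3.69, 3.48, 4.01 and 3.75 Kat6b UMIs per Kat6a UMI in Control 1, Control 2, Kat6a-cKO 1 and Kat6a-cKO 2. CA1 averaged 3.38 ± 0.335, CA3 3.14 ± 0.269 and inhibitory neurons 3.08 ± 0.0377 (SD, n = 4). Smaller neuronal classes ran from 2.87 ± 0.46 in subicular nuclei and 2.92 ± 0.397 in mossy cells to 3.6 ± 0.561 in CA2 and 3.66 ± 0.315 in deep cortical nuclei. OPC had 2.08 ± 0.182 and astrocytes 1.77 ± 0.288, though astrocyte clusters 27 and 9 differed (2.86 and 1.64 with UMIs pooled over libraries). Oligodendrocytes had 0.824, 0.733, 0.882 and 0.726, and microglia 0.52, 0.628, 0.674 and 0.65, so every library of these classes was below 1 and every library of the neuronal classes was at 2.18 or more.

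**Figure D2:**
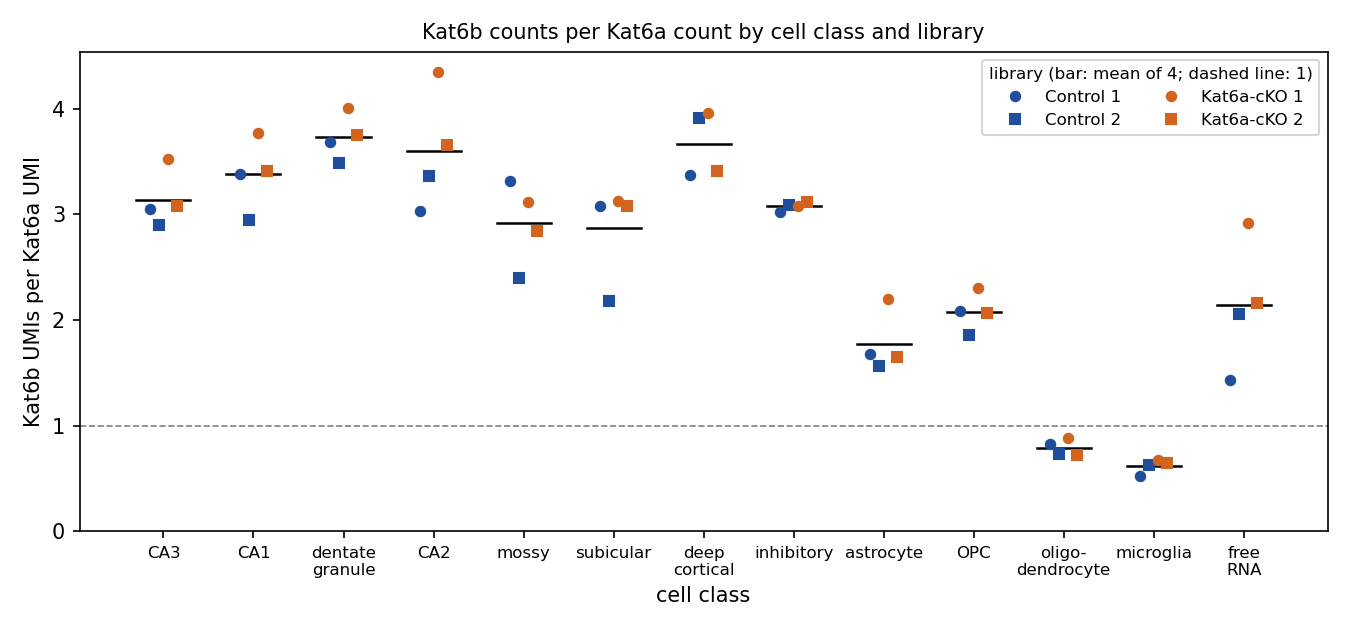
Kat6b UMIs per Kat6a UMI in each cell class and in free RNA (barcodes of 10 to 100 UMIs); points are libraries, black bars means of 4 and the dashed line marks 1. The neuronal classes average 2.87 to 3.73, OPC and astrocytes 2.08 and 1.77, and oligodendrocytes and microglia 0.791 and 0.618.

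RNA free in the suspension, read from barcodes of 10 to 100 UMIs, had 2.14 ± 0.612 Kat6b UMIs per Kat6a UMI, between the neuronal and the oligodendrocyte values. Kat6a was at 65.4 to 98.8 CPM and Kat6b at 141 to 191 CPM in free RNA, both scaled to its total. On that scale microglia had 298 ± 11.7 CPM of Kat6a, above free RNA, and 183 ± 13.7 CPM of Kat6b, within its range. With 10% of each sum removed as free RNA, the ratio was 0.577 in microglia, 0.729 in oligodendrocytes and 3.29 in CA3. The ratio was higher in both Kat6a-cKO libraries than in both Control libraries in CA3 (3.52 and 3.08 against 3.05 and 2.9), CA1 (3.77 and 3.41 against 3.39 and 2.95) and dentate granule nuclei, but also in free RNA (2.92 and 2.17 against 1.43 and 2.06). It was so too in microglia (0.674 and 0.65 against 0.52 and 0.628), CA2 nuclei (4.35 and 3.66 against 3.03 and 3.37), subicular nuclei (3.12 and 3.0838 against 3.0835 and 2.18) and all nuclei together (3.63 and 3.38 against 3.31 and 3.06). The groups overlapped in inhibitory neurons (3.08 and 3.11 against 3.03 and 3.09), astrocytes, OPC, oligodendrocytes, mossy cells and deep cortical nuclei. These genotype values are descriptions, and the share of other gene ratios whose groups do not overlap was not counted. With UMIs pooled over libraries, the ratio was 3.37 in dentate granule cluster 2, against 3.89 and 3.85 in clusters 0 and 3. Cluster 2 held 40.6% and 44.7% of dentate granule nuclei for Control, against 11.4% and 20.8% for Kat6a-cKO. The parts of free RNA and of cluster shares in the genotype values were not tested.

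Kat7 and Kat8, the other enzymes, varied less under TMM. Kat7 then ran from 26.4 ± 2.26 CPM in inhibitory neurons and 27.1 ± 0.776 in astrocytes to 38.8 ± 2.91 in oligodendrocytes and 40.5 ± 5.74 in microglia, 1.53 times across the range. Scaled to class totals, Kat7 ran from 23.8 CPM in CA3 to 58.6 in microglia, and Kat6b from 138 in oligodendrocytes to 340 in dentate granule nuclei. Under TMM, Kat7 was lower in astrocytes than in oligodendrocytes by -0.52 ± 0.12 (adjusted p = 4.04e-04) and in CA3 than in dentate granule nuclei by -0.33 ± 0.07 (adjusted p = 1.25e-04). Both calls held with each library left out and without TMM. For Kat7 in dentate granule and CA1 nuclei the libraries did not overlap, at 35.4 to 39 against 31.6 to 35.1 CPM, but the difference of 0.13 ± 0.07 did not pass (adjusted p = 0.0919; 0.22 and 0.00418 when scaled to class totals). Under TMM, Kat8, the enzyme of the MSL and NSL complexes, had the smallest range, from 21.8 ± 4.96 CPM in OPC to 27.6 ± 1.39 in CA1. Scaled to class totals, it ran from 20.8 CPM in CA3 to 36.3 in microglia, and Meaf6 from 56.3 in astrocytes to 78.1 in OPC. No pair of classes was called for Kat8 under both scalings. Its genomic span (chr7:127912516-127925837, plus strand) overlaps Prss8 on the other strand, and the strand setting of the counting is not given in the sources used here.

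Brd1, a scaffold with a bromodomain, was highest in microglia, where it had 78.5, 62.5, 83.4 and 80 CPM in the order of libraries above. In the other 7 classes its class means lay between 50.6 and 56.8 CPM. The microglial libraries thus stood above all CA3 libraries (54.9 to 59.8 CPM), and CA3 minus microglia was -0.42 ± 0.08 (adjusted p = 2.04e-05). Oligodendrocytes minus microglia was -0.49 ± 0.09 (adjusted p = 1.33e-05). Both were larger without TMM, at -1.25 and -0.98. Brpf3, a further scaffold, was highest in dentate granule nuclei under TMM, with 17.3, 19.7, 16.7 and 17.1 CPM. CA1 nuclei had 12.8, 13.9, 14.6 and 13.8 CPM, below every dentate granule library, and differed by -0.37 ± 0.07 (adjusted p = 1.8e-05). CA3 was lower than dentate granule by -0.28 ± 0.08 (adjusted p = 0.00164). Dentate granule minus microglia was 0.28 ± 0.14 (adjusted p = 0.0656), and -0.43 when scaled to class totals (adjusted p = 0.00883). Brpf3 overlaps 2 non-coding genes on the opposite strand (chr17:28801090-28839949, plus strand). Brpf1, which antisense Gm15492 overlaps (chr6:113307137-113324860, plus strand), had few UMIs, with 23 to 32 UMIs per library in CA3 and 9 to 13 in inhibitory neurons, that is 2.31 ± 0.483 and 1.09 ± 0.209 CPM. CA3 exceeded inhibitory neurons by 1.08 ± 0.26 (adjusted p = 3.9e-04), and the call held with each library left out.

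Of the readers, Ing4 had 12 and 6 UMIs in all nuclei of the Control libraries and 2 and 5 in those of Kat6a-cKO, and passed the filter on low counts in no class. Its span (chr6:125039760-125049265, plus strand) overlaps 4930557K07Rik on the opposite strand and Gm44597 on its own. Ing5 (chr1:93803965-93822101, plus strand; the small nuclear RNA gene Gm22089 overlaps it on the opposite strand) was highest in oligodendrocytes under TMM, with 12.7, 22.5, 18.2 and 18.2 CPM, and lowest in astrocytes, with 7.58, 11.7, 7.7 and 9.96 CPM. The libraries of these classes did not overlap, and astrocytes minus oligodendrocytes was -0.99 ± 0.17 (adjusted p = 3.28e-06). Oligodendrocytes minus microglia was 0.38 ± 0.16 (adjusted p = 0.0512) and -0.11 when scaled to class totals, where microglia were highest. Oligodendrocytes also exceeded OPC, by 0.93 ± 0.19 (adjusted p = 4.7e-05). Control 1 was the lowest library for Ing5 in each class, as the plot of the partners shows.

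Meaf6, the subunit common to the KAT6 and KAT7 complexes (chr4:125085134-125113238, plus strand), was highest in dentate granule nuclei among the 8 classes under TMM, at 84.9 ± 3.41 CPM. Scaled to class totals they had 74.7 CPM, below OPC (78.1), microglia (75.2), subicular (82.6) and deep cortical nuclei (85.7). Astrocytes had the lowest level, 50.0 ± 4.38 CPM, with every library below every OPC library (46 to 55.3 against 66 to 82.9 CPM). Astrocytes minus OPC was -0.56 ± 0.08 (adjusted p = 4.92e-07), astrocytes minus oligodendrocytes -0.49 ± 0.08 (3.88e-07), and inhibitory neurons minus astrocytes 0.46 ± 0.07 (2.8e-07). These 3 calls kept their direction without TMM. The place of microglia did not: with TMM, Meaf6 was higher in CA3 than in microglia by 0.52 ± 0.07, and scaled to class totals it was lower by -0.32 ± 0.07, both past the threshold.

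**Figure D3:**
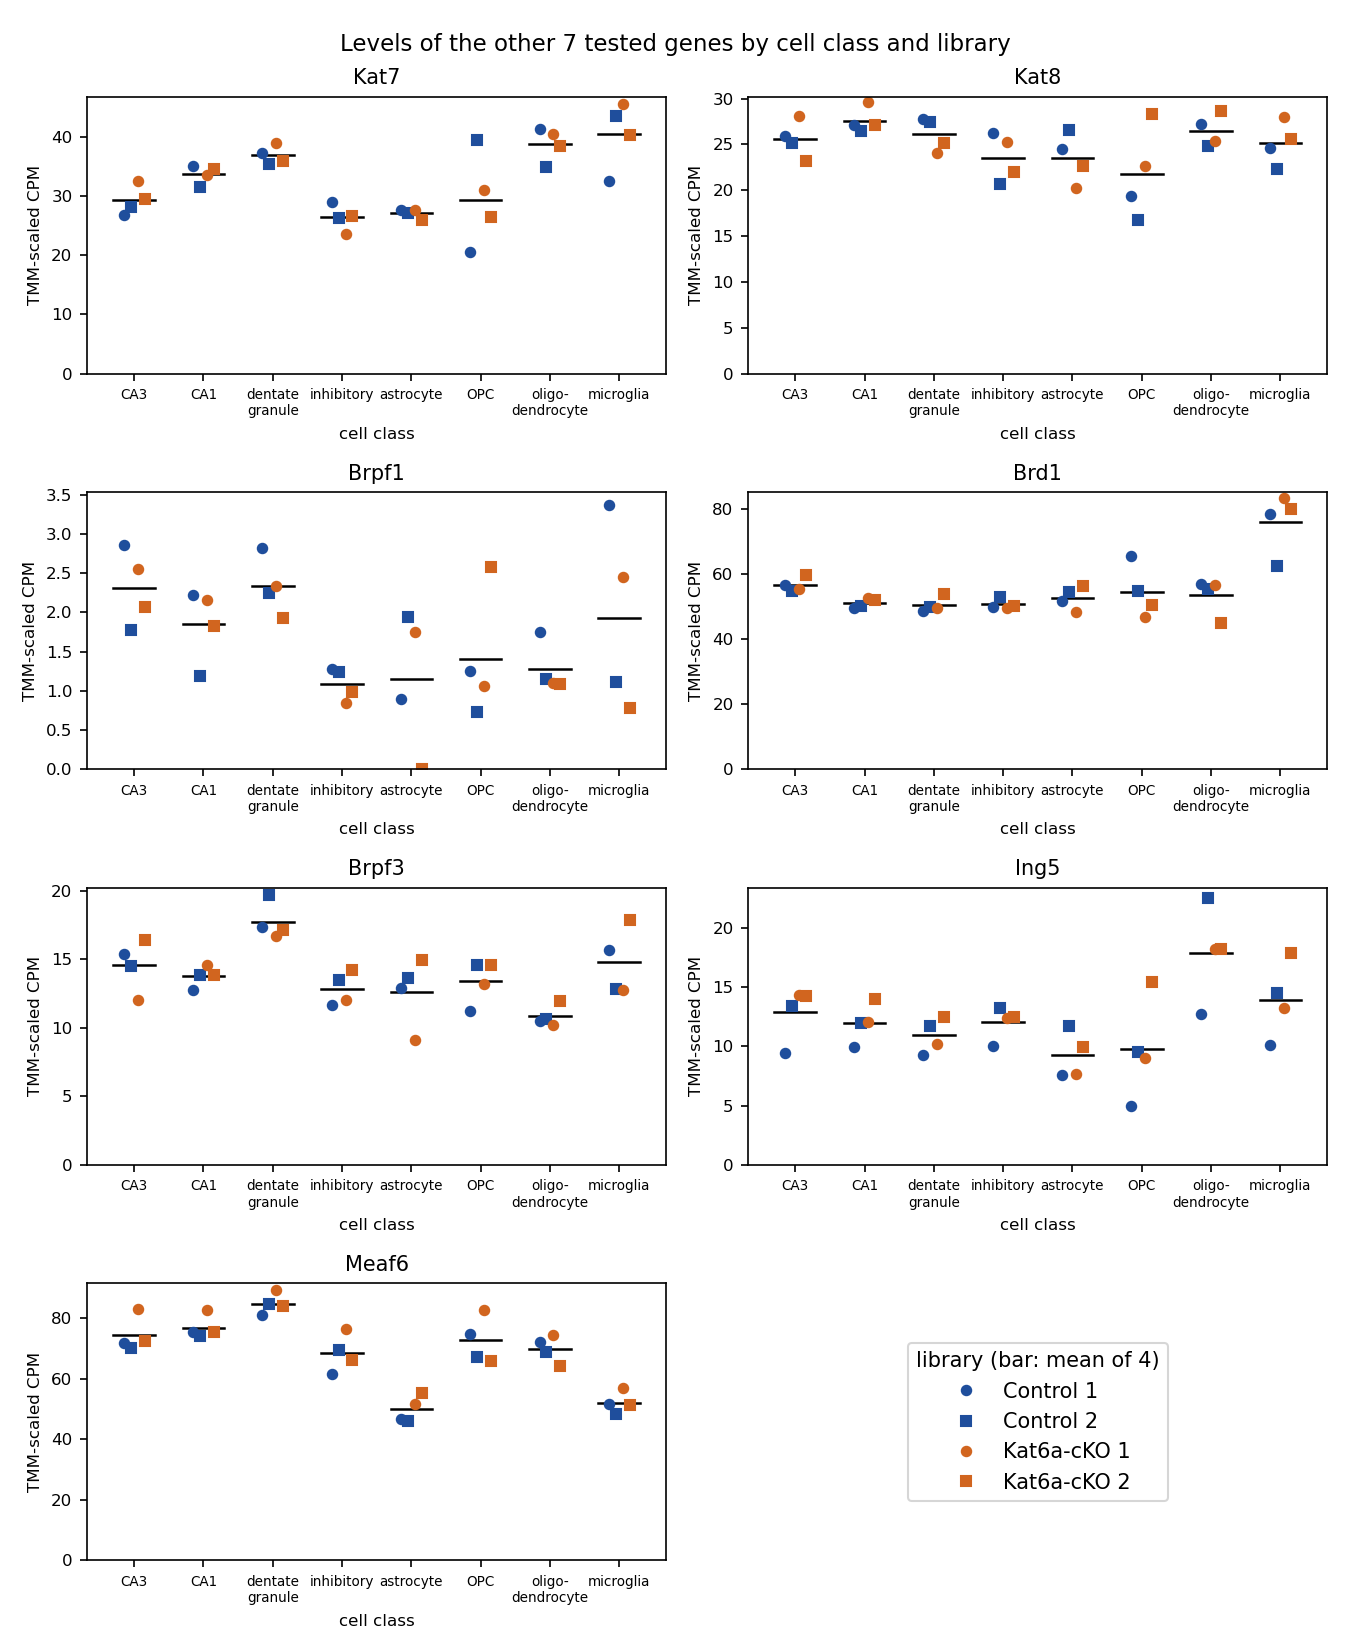
Levels of the other 7 tested genes in TMM-scaled CPM by class and library, with the scale starting at 0 in each panel; bars are means of 4 libraries. By class mean on this scale, Brd1 stands highest in microglia (76.1 CPM), Brpf3 and Meaf6 in dentate granule nuclei (17.7 and 84.9 CPM) and Ing5 in oligodendrocytes (17.9 CPM). The class means of Kat8 lie between 21.8 and 27.6 CPM.

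Most genes differ between cell classes, so the counts of called genes are read against the share of all genes called. Between neurons, 3 of the 9 tested genes were called for CA3 against CA1 (48.2% of all genes), 7 for CA3 against dentate granule (62.5%), 4 for CA1 against dentate granule (61.3%) and 3 for CA3 against inhibitory neurons (57.8%). Between glia it was 2 for astrocytes against OPC (41%), 5 for astrocytes against oligodendrocytes (49.6%), 4 for oligodendrocytes against OPC (49%) and 4 for oligodendrocytes against microglia (49.8%). Across lineages it was 3 for inhibitory neurons against astrocytes (64.2%), 4 for dentate granule against OPC (56%), 5 for CA3 against microglia (70.9%), 4 for dentate granule against microglia (68.2%) and 5 for inhibitory neurons against microglia (70.7%). With each library left out in turn, the calls that held throughout numbered 0 of the 3 for CA3 against CA1 (Kat6b, Kat7 and Brd1 were lost), 5 of the 7 for CA3 against dentate granule (Brd1 and Ing5 were lost) and 1 of the 3 for CA3 against inhibitory neurons (Brd1 and Meaf6 were lost). For dentate granule against OPC it was 1 of the 4 (Kat7, Brpf3 and Meaf6 were lost), and for astrocytes against OPC 1 of the 2 (Kat6a was lost). A single call was lost for inhibitory neurons against astrocytes (Ing5, 2 of 3 held), CA1 against dentate granule (Meaf6), oligodendrocytes against OPC (Kat7) and oligodendrocytes against microglia (Brpf3, lost whichever library was left out), with 3 of 4 held in each of the last 3 pairs. No call was lost for astrocytes against oligodendrocytes (5) or for CA3 (5), dentate granule (4) and inhibitory neurons (5) against microglia. The counts also depend on the scaling. Scaled to class totals, 5 genes were called for CA3 against dentate granule (64.4% of all genes), 6 for CA1 against dentate granule (63%), 6 for oligodendrocytes against microglia (57.7%), 7 for CA3 against microglia (73.8%), 7 for dentate granule against microglia (72.5%) and 9 for inhibitory neurons against microglia (73.4%). For inhibitory neurons against astrocytes it was 5 (65.5%), for CA3 against CA1 2 (48.5%) and for dentate granule against OPC 3 (56.6%). Over all 28 pairs of classes, Kat6a was called in 24 under TMM and in the same direction in 24 when scaled to class totals as well. The other genes were called in both, with the same sign, in 17 pairs for Kat6b, 14 for Kat7, 0 for Kat8, 3 for Brpf1, 7 for Brd1, 5 for Brpf3, 8 for Ing5 and 8 for Meaf6. Kat6b was called with opposite signs in 2 pairs and Meaf6 in 4. Per pair, 41.0% to 71.8% of all genes were called under TMM and 41.5% to 74.2% when scaled to class totals. The share of all genes called in both with the same sign was not counted.

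Across the 8 class means under TMM, Pearson's r of log2(CPM + 1) was -0.746 between Kat6a and Kat6b, 0.66 between Kat6a and Brd1, 0.632 between Kat6a and Kat7 and 0.801 between Brpf1 and Brpf3. It was not computed for class totals, where Kat6b was at 183 CPM in microglia and 198 in CA3 (127 and 244 under TMM). The points share libraries and TMM factors, and the values are descriptions. Among 6831 genes with a mean of at least 20 CPM, the 5 whose pattern was most like that of Kat6a were Tma7 (r = 0.994), Cnbp (0.992), Api5 (0.992), Rab14 (0.988) and Otub1 (0.987), measured in the same way. Cnbp is a nucleic acid-binding zinc finger protein, Rab14 a GTPase of endosomal traffic and Otub1 a deubiquitinase. Rab14, for example, rose from 47.7 CPM in CA3 to 119 CPM in microglia.

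The effect of the genotype on the paralog and the partners was tested in each class. None of the 10 genes passed the threshold in any of the 9 fits, 8 classes and all nuclei together. Of 77 gene and class combinations tested with edgeR, 0 were called, 0 had an unadjusted p under 0.05 (6.59% to 10.4% of all genes had one in the 9 fits), and DESeq2 called 0. The number called was 0 of 9 in CA3 (0.027% of all genes were called), CA1 (0.0413%), dentate granule (0.479%), inhibitory neurons (0%; DESeq2 called 13 genes there) and all nuclei (0.0552%), and 0 of 8 in astrocytes (0.202%), oligodendrocytes (0.00856%), OPC (0.264%) and microglia (0.0696%). So few genes were called overall that a count of 0 is near the background. The median log2 difference of the tested genes ranged over the neuronal classes from 0.01 (inhibitory) to 0.06 (CA1), with 0.03 for CA3 and 0.02 for dentate granule nuclei. For glia it ran from -0.10 (astrocytes) through 0.04 (oligodendrocytes) and 0.06 (OPC) to 0.17 (microglia), and for all nuclei it was -0.02. Medians of all genes lay between -0.005 and 0.003. Simulation of CA3 counts recovered 131 of 199 genes drawn at random from all tested genes and given a log2 change of 1. Counts were drawn with the spread typical of a gene's level, not its own, and recovery was not split by level. Smaller changes, such as those fitted for the genes described here, were not simulated.

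Kat6b, the closest paralog, passed the test in no class. In CA3 the Control libraries stood at 243 and 226 CPM, and those of Kat6a-cKO at 261 and 246 CPM. The groups did not overlap, but the difference of 0.10 ± 0.07 had an interval from -0.0598 to 0.253 (adjusted p = 0.805, edgeR). In CA1 nuclei the values were 266 and 237 against 297 and 267 CPM, with an interval from -0.0493 to 0.336. The CA1 difference of 0.14 ran from 0.07 without Kat6a-cKO 1 to 0.21 without Control 1, and was 0.07 without Control 2. In CA3 it ran from 0.06 without Kat6a-cKO 1 or Control 2 to 0.14 without Kat6a-cKO 2. The make-up of CA1 varied too: cluster 16 (led by Gm12128, Gm36431 and Adam12) held 13.4% of CA1 nuclei in Kat6a-cKO 1, the library highest for Kat6b, and 5.46% to 7.06% in the others. Scaled to cluster totals, Kat6b was higher in both Kat6a-cKO libraries in cluster 1 (229 and 220 against 219 and 207 CPM) and cluster 8 (235 and 217 against 205 and 199.7 CPM), whereas the groups overlapped in cluster 16 (278 and 233 against 239.7 and 212 CPM). The 8 astrocyte markers in CA1 nuclei, all above 0, summed to 838 and 900 CPM for Control against 589 and 584 for Kat6a-cKO, and the 8 CA3 markers to 730 in Kat6a-cKO 1 against 532 to 599.7 in the others. Their part in the CA1 values was not tested. Dentate granule nuclei had 397 and 364 against 411 and 374 CPM, and inhibitory neurons 237 and 228 against 240 and 235 CPM. The fitted difference was above 0 for Kat6b in 9 of the 9 fits and below 0 for Kat6a in 8 of 9. These fits share their libraries, and that of all nuclei includes nuclei of the classes, so they are not separate observations. The share of all genes with the same sign in as many fits was not counted. Nor was the share of all genes whose groups do not overlap. Kat6a had its lowest value in astrocytes, at -0.18 ± 0.14 (147 and 128 CPM against 116 and 134 CPM), where the groups overlapped, and ran from -0.29 without Kat6a-cKO 2 to -0.06 without Kat6a-cKO 1 (-0.11 without Control 1). Over all nuclei, scaled to their totals, Kat6a was at 78.9 and 80 CPM for Control, against 72.8 and 73.3 CPM for Kat6a-cKO, a difference of -0.10 ± 0.06 on the log2 scale (interval -0.234 to 0.0318, adjusted p = 0.6). The mix of classes differed: 3401 of 7846 and 3159 of 7649 nuclei were dentate granule for Control, against 2964 of 7911 and 2696 of 7438 for Kat6a-cKO. Scaled to class totals, Kat6a was at 91.2 CPM in dentate granule, 65.4 in CA1 and 63.4 in CA3 nuclei. The part of this mix was not tested.

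Among the partners, the smallest adjusted p was that of Kat8 in dentate granule nuclei. The Control libraries had 27.7 and 27.4 CPM, and both Kat6a-cKO libraries were lower, with 24.1 and 25.2 CPM. The difference was -0.18 ± 0.09 with an interval from -0.377 to 0.0143 (adjusted p = 0.55, edgeR). Ing5 in CA3 was at 9.47 and 13.4 CPM against 14.4 and 14.2 CPM, where Control 1 stood apart from the other 3 libraries. Its difference of 0.30 ± 0.18 ran from 0.07 without Control 1 to 0.59 without Control 2. For Brpf1 the interval was wide, from -0.754 to 0.732 in CA3. Brd1, Brpf3, Kat7 and Meaf6 in CA3 had intervals of -0.16 to 0.229, -0.442 to 0.294, -0.0838 to 0.4 and -0.0806 to 0.312.

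**Figure D4:**
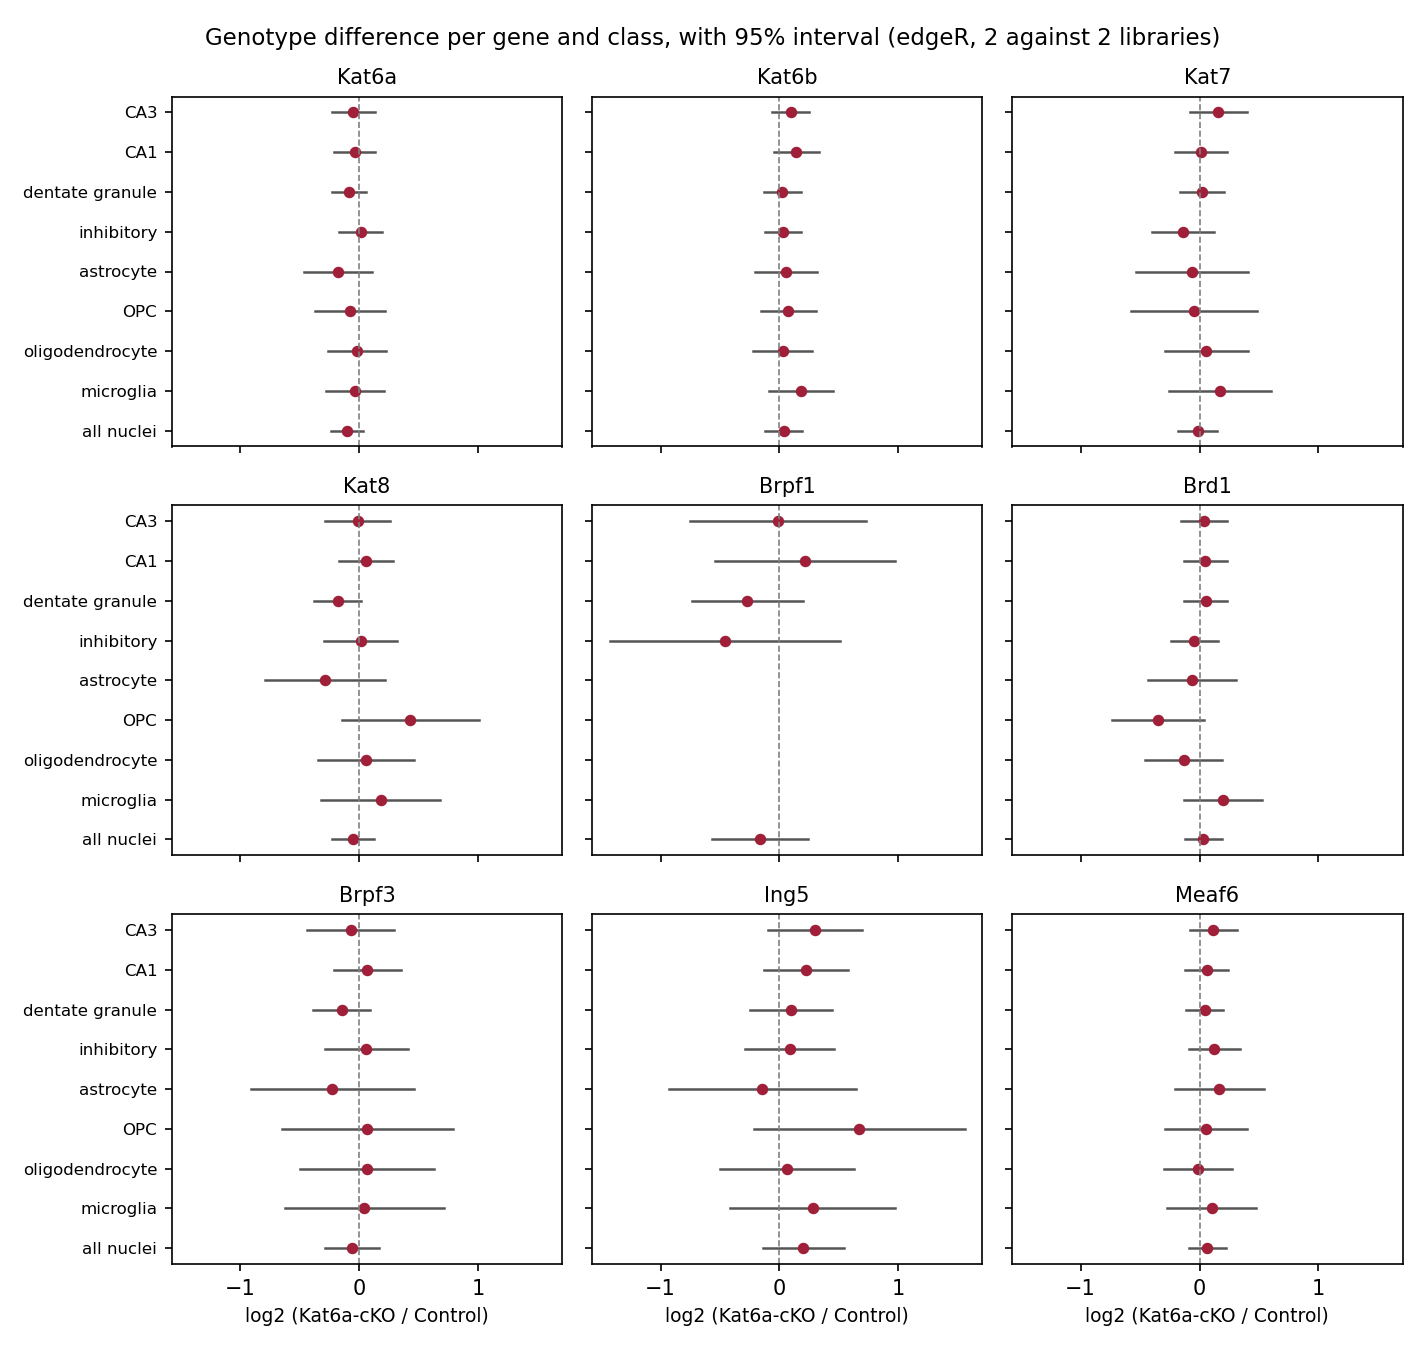
Log2 difference, Kat6a-cKO minus Control, of each tested gene in 8 classes and all nuclei together; points are edgeR estimates and lines 95% intervals (2 against 2 libraries), with no point where a gene did not pass the filter on low counts. All 77 intervals include 0, and in each neuronal class that of Brpf1 is the widest.

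The make-up of the dentate granule class moved with the genotype, so its values were also read cluster by cluster. Cluster 0 (leading genes Slc4a4, Il1r1 and Glis3) held 31.1% and 24.8% of dentate granule nuclei for Control, against 60.5% and 50% for Kat6a-cKO. Cluster 2 (Igfbp5, Dsp and Npnt) held 40.6% and 44.7% against 11.4% and 20.8%, and cluster 3 held 28.1% to 30.5% in every library. Scaled to cluster totals, Kat6a stood at 87.2 and 90.3 against 83.2 and 89 CPM in cluster 0, 101 and 100 against 99.1 and 88.6 CPM in cluster 2, and 92.1 and 93.4 against 93.2 and 87.3 CPM in cluster 3. Both Kat6a-cKO libraries were below both Control libraries in cluster 2, whereas the groups overlapped in clusters 0 and 3. For Kat6b the groups overlapped in cluster 0 (344 and 329 against 345 and 328 CPM), cluster 2 (340 and 329 against 337 and 316 CPM) and cluster 3 (355 and 341 against 371 and 349 CPM). Kat8 was lower in both Kat6a-cKO libraries in cluster 0 (20.9 and 21.8 against 23 and 24.1 CPM) and cluster 3 (19.2 and 19.9 against 24.6 and 24.6 CPM) but not in cluster 2 (22.3 and 27.4 against 24.8 and 26 CPM). An alternative fit gave these clusters equal weight in every library. It called 1 gene in dentate granule nuclei, against 83 in the main fit, and none of the 10 described here. Its sums were scaled to the full class total, so a small cluster, such as cluster 2 in Kat6a-cKO 1 (338 nuclei), counted as much as a large one. Its number of calls therefore does not isolate the cluster shares, and subtracting free RNA gave 0 calls in this class. The part of the cluster shares in the dentate granule values was not tested.

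A class-by-genotype interaction asked whether the genotype difference itself varied between neuronal classes. Of the 9 genes, 0 were called for CA3 against CA1 (0.0586% of all genes), CA3 against dentate granule (0.151%), CA1 against dentate granule (0.0497%), CA3 against inhibitory (0.025%), CA1 against inhibitory (0.0866%) and dentate granule against inhibitory (0%). An unadjusted p under 0.05 was reached by 2 of the 9 genes for CA1 against dentate granule (6.8% of all genes) and by 0 in the other pairs (4.51% to 5.84%). The smallest p was that of Kat8 for CA1 minus dentate granule, 0.26 ± 0.10 (adjusted p = 0.671, edgeR), which ran from 0.12 without Kat6a-cKO 1 to 0.37 without Kat6a-cKO 2. Kat6b in that pair had 0.14 ± 0.06 (adjusted p = 0.707, edgeR). For Kat6a, CA3 minus inhibitory neurons was -0.09 ± 0.09 and CA1 minus inhibitory neurons -0.06 ± 0.09 (adjusted p = 0.962 and 0.998). The first was -0.0061 without Kat6a-cKO 1 and -0.03 without Control 2, and -0.16 without Kat6a-cKO 2.

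The neighbouring complexes gave 0 calls in any class as well, where 0% to 0.479% of all genes were called. In CA3, CA1 and dentate granule nuclei an unadjusted p under 0.05 was reached by 0, 1 and 2 of 17 NuA4 genes and by 0 of the JADE, MSL and NSL genes, against 8.04%, 8.13% and 9.95% of all genes. Jade1, Jade2 and Jade3, the alternative scaffolds of KAT7, had a median of 0.06 in CA3, -0.01 in CA1 and 0.01 in dentate granule nuclei. The genes of smallest p were Jade1 (0.16 ± 0.13) and Jade2 (0.06 ± 0.14) in CA3, Jade3 (0.08 ± 0.09) and Jade1 (-0.01 ± 0.12) in CA1, and Jade2 (0.14 ± 0.12) and Jade3 (0.01 ± 0.08) in dentate granule nuclei. The 3 MSL genes, which with KAT8 acetylate histone H4, had medians of -0.11, -0.11 and -0.09. They were led by Msl3 (0.23 ± 0.16) and Msl2 (-0.11 ± 0.10) in CA3, Msl1 (-0.49 ± 0.25) and Msl2 (-0.11 ± 0.11) in CA1 and Msl2 (-0.09 ± 0.08) and Msl1 (-0.10 ± 0.21) in dentate granule nuclei. The 8 NSL genes had a median of 0.03 in each of these classes. Their smallest p-values belonged to Phf20 (0.09 ± 0.07) and Wdr5 (0.14 ± 0.11) in CA3, Phf20 (0.15 ± 0.07) and Kansl3 (0.09 ± 0.07) in CA1, and Mcrs1 (-0.17 ± 0.13) and Phf20 (0.07 ± 0.07) in dentate granule nuclei.

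TIP60, a further MYST enzyme encoded by Kat5, works in the NuA4 complex, whose 17 genes had medians of 0.02 to 0.03 in these classes. In CA3 Ruvbl1 (-0.30 ± 0.15) and Ruvbl2 (0.44 ± 0.29), paired ATPases of the complex, had the smallest p-values. In CA1 and dentate granule nuclei it was Trrap, the large scaffold, at 0.18 ± 0.07 in both (adjusted p = 0.575 and 0.402, edgeR), with Morf4l2 at -0.10 ± 0.08 and -0.19 ± 0.08. Of 13 genes linked to KAT6A in earlier work, among them Hoxa genes and cell-cycle genes, 3 passed the filter in CA3 and 4 in CA1 and in dentate granule nuclei. The smallest p-values belonged to Ezh2 (-0.10 ± 0.13) and Bmi1 (0.03 ± 0.20) in CA3, Meis1 (-0.71 ± 0.51) and Bmi1 (0.14 ± 0.14) in CA1, and Ezh2 (-0.13 ± 0.09) and E2f2 (0.13 ± 0.21) in dentate granule nuclei.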

How the data were processed

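The authors deposited raw counts (UMIs) per barcode and gene for every barcode, empty droplets included, and the submitters' processing notes name Seurat 4.0.1 and mm10. The aligner, the annotation release, the strand setting and whether intronic reads were counted are not given in the sources used here. Gene IDs were matched to GENCODE M21 (GRCm38), 54587 with the version number, 567 by ID only (Kat6a and Kat6b among them) and 268 not at all.

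Barcodes with at least 5000 UMIs (1000 for glia) were used as nuclei. Doublets were called per library with Scrublet in scanpy 1.11.5 (expected rate 6%) and 350 to 550 per library were left out. Library pairs shared 27 to 35 barcodes. Counts were scaled to 10000 and log-transformed, and 30 principal components of 2000 variable genes were clustered by Leiden (leidenalg 0.10.2, 15 neighbours, resolution 1) into 37 clusters. 91 genes were left out of the clustering, the 10 described here included. A cluster took the name of a class when at least 50% and at least 3 of its markers were raised 2-fold (5 CPM added), unless its 10 leading genes favoured another class, a second class that is not its neighbour (such as CA2 to CA3) also met this rule, or its UMIs were low with no marker of the class among the leading genes. Clusters with Cajal-Retzius and endothelial markers stayed unnamed because of a second class. These naming thresholds were set after the data were seen. Endothelial nuclei were therefore not tested.

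Counts were summed per class and library (at least 30 nuclei each), and 8 classes and all nuclei were tested with edgeR 4.0.16 (quasi-likelihood, TMM, filterByExpr, R 4.3.3), with Benjamini-Hochberg adjusted p over all genes and a threshold of 0.05. CA2, mossy, subicular and deep cortical nuclei, though numerous enough, were not among the planned tests and are given as class-total CPM and ratios only. Levels between classes and interactions were fitted with the library as a block. For levels, the 8 classes shared a single fit, so the spread behind each p-value was pooled over all of them. Intervals are 95% and cover these libraries only. In simulated counts, a log2 change of 1 was called in 131 of 199 cases in CA3, 133 of 195 in CA1, 162 of 198 in dentate granule and 140 of 196 in inhibitory neurons, with 3 to 10 unchanged genes called over these classes. Named genes are every one of the 10, the 2 of each further list with the smallest p in CA3, CA1 and dentate granule nuclei, and the 5 most like Kat6a. The genes, lists and tests were chosen with earlier results of these data known. Alternatives were DESeq2 1.42.0, no filter on low counts, a replicate block, each library left out, free RNA subtracted (10%), minimums of 8000 and 2000 UMIs, Leiden resolution 2 and doublets kept. Scaling to class totals and other choices of clusters were added after the data had been seen. The other choices left cluster 16 out of CA1 and gave the dentate granule clusters equal weight in each library.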

Additional observations from a re-analysis of the deposited data

How the results depend on the processing

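Across 864 alternative values of the 9 tested genes (all but Ing4) in the classes, 0 were called, and the smallest adjusted p was 0.122 (main fits 0.55). The sign changed in 69, of which 59 had a library left out. Level differences were put through the alternatives only for the pairs of classes whose counts of called genes are each given above. Calls in other pairs, such as those of Kat6b for CA1 against inhibitory neurons, astrocytes and OPC, were left out. Of 53 called level differences, 468 of 530 alternative values kept direction and call, 55 kept direction only and 7 reversed, all when scaled to class totals: Brd1 in CA3 minus inhibitory -0.0409, and Meaf6 in CA3 minus inhibitory -0.0825, dentate granule minus OPC -0.0748, oligodendrocytes minus microglia -0.0593, CA3 minus microglia -0.3164, dentate granule minus microglia -0.0094 and inhibitory minus microglia -0.2339. Of 72 alternative ratios of Kat6b to Kat6a 70 moved by less than 1 SD, the others being inhibitory without free RNA (3.207) and OPC with doublets kept (2.3569).

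The counts of all called genes, in the order CA3, CA1, dentate granule, were 34, 115 and 216 with DESeq2, 315, 552 and 602 without the filter, 137, 1 and 460 with the replicate block and 2, 1 and 0 without free RNA. DESeq2 called 13 in inhibitory neurons, 0 in astrocytes, 1 in OPC, 0 in microglia and 460 in all nuclei. Without the filter 44 were called in astrocytes, 123 in oligodendrocytes, 51 in microglia and 1 in all nuclei. The block gave 166 in astrocytes, 309 in oligodendrocytes, 50 in OPC, 102 in microglia and 847 in all nuclei. The replicate numbers are not known to mark shared mice or days: deviations of same-numbered libraries correlated at 0.0245 to 0.337 over the fits, with 2 pairs only, and the block called none of the 10 genes. Without free RNA, all nuclei had 1, OPC 17 and oligodendrocytes 4. Higher UMI minimums gave 5 in inhibitory neurons, and resolution 2 gave 2 in CA1, 13 in astrocytes and 2 in microglia. Keeping doublets gave 2 in CA1, and the other choices of clusters 4 in CA1 and 1 in dentate granule. Leaving out a library gave 117 to 286 in CA3, 4 to 550 in CA1, 125 to 366 in dentate granule, 10 to 149 in inhibitory, 10 to 46 in astrocytes, 2 to 147 in oligodendrocytes, 15 to 37 in OPC, 10 to 72 in microglia and 2 to 274 in all nuclei. The cause was not tested.

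For interactions, in the order of the text, counts without the filter were 84, 117, 273, 122, 146 and 58. Without free RNA they were 2, 0, 0, 1 and 0 in the first 5, at resolution 2 they were 5, 9, 7 and 4 for CA3 against CA1, dentate granule and inhibitory and CA1 against inhibitory, with higher minimums 9 and 1 and with doublets kept 5 and 2 for CA1 and dentate granule against inhibitory. Leaving out a library gave 12 to 58, 0 to 193, 7 to 388, 2 to 80, 21 to 178 and 0 to 9.

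Uncalled differences near 0 changed sign. With a library left out, Kat6a ran from -0.1054 to 0.0051 in CA3, -0.0323 to 0.0511 in inhibitory neurons, -0.0866 to 0.0618 in oligodendrocytes and -0.0971 to 0.0393 in microglia, and Kat6b from -0.037 to 0.0759 in dentate granule, -0.0524 to 0.1879 in astrocytes, -0.0363 to 0.0968 in oligodendrocytes and -0.0285 to 0.0944 in all nuclei. Kat6a interactions ran from -0.042 to 0.0559 (CA3 minus CA1), -0.0466 to 0.0983 (CA3 minus dentate granule), -0.0227 to 0.1023 (CA1 minus dentate granule) and -0.1387 to 0.0268 (CA1 minus inhibitory). Kat6a in inhibitory neurons was -0.0084 at resolution 2, Kat6b in oligodendrocytes -0.0057 without free RNA and -0.0079 with higher minimums, and the Kat6a interaction of CA3 and CA1 -0.0179, -0.0021 and -0.0063 without free RNA, with higher minimums and with doublets kept. DESeq2 and the block were not run for levels and interactions, and endothelial nuclei were not tested. Ing4, Brpf1 and Ing5 had the fewest UMIs of the 10 genes over all nuclei (25, 820 and 4980).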

Other observations

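Clusters that took no name held some of the highest levels of Kat6b. Values are CPM of cluster totals, mean ± SD over 4 libraries, with no test, and are set against dentate granule nuclei on that scale (Kat6b 340 ± 9.58, Kat6a 91.2 ± 3.81). On the same scale Kat6a was at 148 in astrocytes, 175 in oligodendrocytes and 298 in microglia. A cluster led by Reln, Ndnf and Trp73 (310 nuclei), genes known from Cajal-Retzius cells, had Kat6b at 504 ± 42.6 and Kat6a at 142 ± 11.3. A cluster led by Sema3c, Adamts18 and Igfbpl1, with Sox11, a gene of immature neurons, in its 10 leading genes (1298 nuclei), had Kat6b at 426 ± 18.8 and Kat6a at 131 ± 9.8. With UMIs pooled over the 4 libraries, as for every ratio below, their Kat6b UMIs per Kat6a UMI were 3.55 and 3.25. A cluster led by Flt1 with haemoglobin genes had 0.836 Kat6b UMIs per Kat6a UMI, with Kat6a at 191 ± 60.4.

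Classes were not uniform inside. Of the clusters named astrocyte, cluster 27 (led by Adgrv1, Slc1a3 and Rgs20, 231 nuclei) had Kat6b at 475 ± 65.6 and cluster 9 (Gli3, Gja1 and Slc39a12, 1595 nuclei) at 231 ± 12.8, with Kat6a at 171.1 ± 24.7 and 145 ± 15.3. Their Kat6b UMIs per Kat6a UMI were 2.86 and 1.64. Between OPC and oligodendrocytes, an unnamed cluster with Bcas1 and Enpp6, genes of newly formed oligodendrocytes, among its leading genes (218 nuclei) had 1.58 Kat6b UMIs per Kat6a UMI, against 2.09 in the OPC cluster (2.08 as a mean of libraries), 1.06 in oligodendrocyte cluster 25 (Mobp, Opalin and Mog) and 0.747 in oligodendrocyte cluster 4 (Prr5l, Mobp and Aspa). Brpf3 was at 27.6 ± 2.47 in an unnamed cluster led by Vwc2l and Tshz2 and at 22.4 ± 5.02 in deep cortical nuclei, but at 5.54 ± 0.89 in CA2.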
